A study of Mus musculus with 6 samples.

Results

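The genes described are 33 mouse transporters of organic ions and drugs, taken by name from the organic anion, cation, urate and ABC drug transporter families. All 33 were found among the 32285 gene IDs of the count table, and 32 of them were among the 15955 genes with enough reads to test. They comprise 16 carriers usually placed on the uptake side of the tubule cell, 12 efflux pumps and exporters, and 5 carriers whose direction is not settled. The kidneys under study were 3 high-load kidneys, with 75, 75 and 80% of a mutation in TrnE, which encodes the tRNA for glutamate in mitochondria. The 3 controls carried the same mutation at 10, 5 and 15%. The series text gives all 6 as freshly collected kidneys of female mice aged 100 weeks and names no treatment or strain. No group free of the mutation was analysed here, the labels do not say in which tissue or at what age the load was read, and the tRNA gene itself was not analysed here. Whole kidney RNA was sequenced.

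Proximal tubule cells clear drugs, toxins and waste ions from the blood in a relay across both faces of the cell. Carriers of the SLC22 and SLCO families on the blood side take up organic anions and cations, many of them in exchange for dicarboxylates or along the membrane voltage. Carriers and ATP-driven ABC pumps on the brush border pass them into the urine, and other brush-border carriers recover urate, bile acids and vitamins from it. In mice many of these genes are known to differ strongly between males and females.

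That last point bears on the controls, because the library labelled control 2 went against the label female. Its Xist count was 3, against 14002 to 17028 in the other 5 libraries. Ddx3y, Eif2s3y, Kdm5d and Uty, genes of the Y chromosome, had 1110, 1276, 421 and 403 counts in it and 0 in each of the others. Slc7a13, an amino acid carrier known to be higher in male mouse kidney, stood at 118 CPM in control 2 and between 0.142 and 1.31 CPM elsewhere. These genes were named after their values were seen. How the library came by its label was not tested, and the results on the transporters are therefore given with control 2 and, for fold changes and counts, also without it. High-load 1 also stood apart, with the lowest proximal tubule marker level of all 6 kidneys. Library totals were 18090197 to 18613697 counts in the high-load kidneys and 17449270 to 18865997 in the controls. As a check of the tissue, the 22 proximal tubule markers summed to 7468 to 29754 CPM in the high-load kidneys and 32111 to 36545 CPM in the controls (CPM, counts per 1000000 counts of the TMM-scaled library). The marker Kap alone held 150, 9589 and 2955 CPM of these sums in the high-load kidneys, against 5108, 4408 and 10599 CPM in the controls.

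Several of the transporters lie close together on chromosome 19. Slc22a6 (ENSMUSG00000024650, chr19:8618039-8628299) and Slc22a8 (ENSMUSG00000063796, chr19:8591254-8611835), the main organic anion uptake carriers, are next to each other on the plus strand. Slc22a28 (ENSMUSG00000063590, chr19:8062209-8131982), Slc22a29 (ENSMUSG00000075044, chr19:8160165-8218900) and Slc22a30 (ENSMUSG00000052562, chr19:8335371-8405111) are rodent paralogs on the minus strand. The sequence before their start is shown because control 2 lay above the other controls for Slc22a28 and Slc22a30 and below them for Slc22a29. Each line gives the 250 bases before the RefSeq start (GRCm38.p6), 5′ to 3′ on the gene's own strand, at chr19:8131983-8132232, chr19:8405106-8405355 and chr19:8218901-8219150. Capitals in Slc22a28 and Slc22a30 mark aligned bases that differ between these genes, and capitals in Slc22a29 mark aligned bases that differ from Slc22a28. Bases with no aligned partner are in lower case.
Slc22a28: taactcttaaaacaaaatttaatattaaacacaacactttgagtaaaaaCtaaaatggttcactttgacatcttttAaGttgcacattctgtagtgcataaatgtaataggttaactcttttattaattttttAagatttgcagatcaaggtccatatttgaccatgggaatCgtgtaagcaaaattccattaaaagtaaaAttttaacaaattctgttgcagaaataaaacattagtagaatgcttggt
Slc22a30: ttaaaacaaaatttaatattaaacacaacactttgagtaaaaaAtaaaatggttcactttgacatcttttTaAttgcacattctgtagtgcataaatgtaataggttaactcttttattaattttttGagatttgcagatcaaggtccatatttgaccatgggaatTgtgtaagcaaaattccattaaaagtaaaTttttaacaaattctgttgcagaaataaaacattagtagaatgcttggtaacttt
Slc22a29: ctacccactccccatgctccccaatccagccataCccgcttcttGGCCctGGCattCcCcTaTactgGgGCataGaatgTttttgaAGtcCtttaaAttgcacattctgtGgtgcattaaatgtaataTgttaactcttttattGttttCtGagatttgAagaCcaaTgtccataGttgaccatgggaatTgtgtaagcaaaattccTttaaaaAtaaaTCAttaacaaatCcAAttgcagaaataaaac

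Upstream of the start, Slc22a28 and Slc22a30 were identical at 238 of 244 aligned bases (97.5%). Slc22a29 and Slc22a28 were identical at 174 of 213 aligned bases (81.7%).

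Most of the transporters had lower mRNA levels in the high-load kidneys than in the controls, on the uptake and the efflux side alike. The log2 fold change of high load over control was below 0 in 30 of the 32 tested genes and above 0 in Abcc1 and Slco2a1. The median was -0.75, against 0.0067 over all 15955 genes. Without control 2 it was -0.69, with 30 of 32 again below 0, against 0.012 over all genes. High-load 1 carried part of this size: without it the median was -0.48. With library totals in place of TMM scaling, the median was 0.13 over all genes and -0.64 over the transporters, of which 29 were below 0, Abcc5 now above it. With DESeq2 size factors 31 were below 0, Slco2a1 now among them. In whole kidney RNA, fewer tubule cells and less RNA per cell cannot be told apart.

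No transporter passed the test at an adjusted p under 0.05 over all genes, where 0% of all genes were called lower and 0.0188% higher (edgeR's quasi-likelihood test with Benjamini-Hochberg adjustment). The smallest adjusted p was 0.12, for Abcb1b. At an unadjusted p under 0.05, 10 of the 32 (31.2%) were lower, against 10.2% of all genes, and 0 were higher, against 14% of all genes. With library totals 9 were lower and 1 higher, against 6.31% and 18.2% of all genes. Without control 2 these counts were 6 lower (18.8%), against 6.25% of all genes, and 0 higher, against 9.84%. DESeq2 at an adjusted p under 0.05 called 7 lower and 0 higher, where it called 2.62% of 23811 genes lower and 4.51% higher. The 7 were Abcb1b, Slc22a12, Slc47a1, Slco4c1, Abcc6, Abcg2 and Slco1a6. Without control 2 DESeq2 called 2 lower, Abcb1b and Abcc3, and 0 higher, against 0.669% of 23623 genes lower and 1.9% higher. Genes in DESeq2 were not filtered on low counts, so its shares and those of edgeR are not over the same genes. In 10 genes all 3 high-load kidneys lay below all 3 controls, which held for 15.8% of all genes, and in 0 genes they lay above, against 17.1%. Set against controls 1 and 3 alone 17 lay below and 0 above, against 20.8% and 21.5% of all genes. With library totals in place of TMM the number below was 7, with Slc22a6, Slco4c1 and Abcc2 no longer among them, against 9.33% of all genes. None lay above, against 24.2%.

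**Figure D1:**
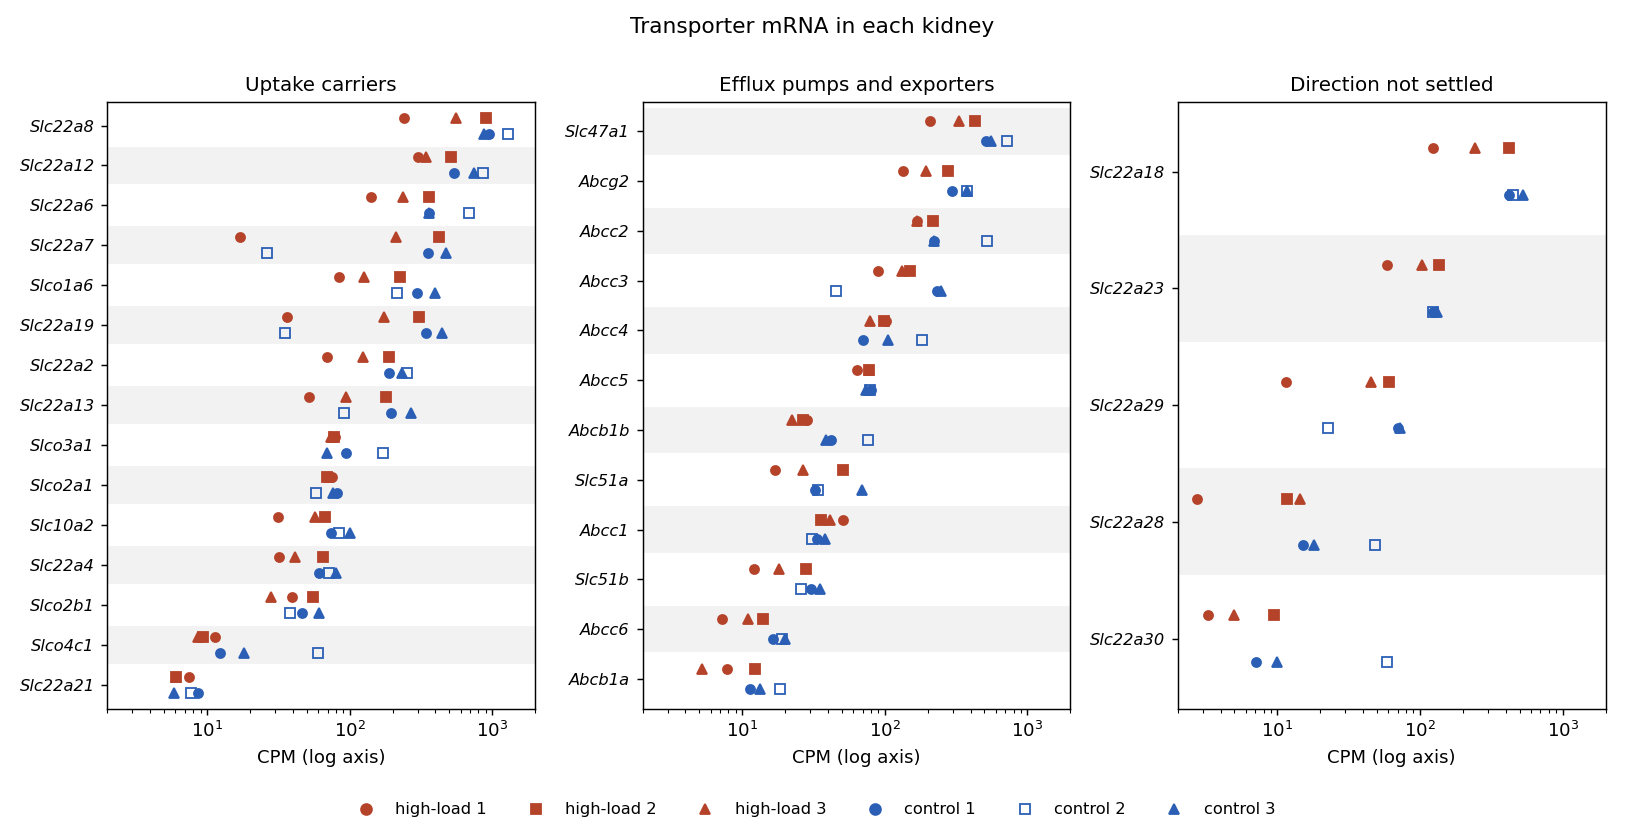
Each point is 1 kidney, with CPM on a log axis; red symbols are the 3 high-load kidneys and blue symbols the 3 controls, with control 2 as an open symbol. Most rows have the red symbols to the left of the filled blue ones, and control 2 lies far to the right for Slc22a30 and Slco4c1 and far to the left for Slc22a7 and Slc22a19.

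On the blood side, where organic anions and cations enter the cell, all 4 uptake carriers averaged less in the high-load kidneys. Slc22a6 (OAT1), which takes up small organic anions such as p-aminohippurate and many drugs, had 141, 359 and 238 CPM in the high-load kidneys, against 362, 691 and 361 CPM in the controls. All 3 high-load values lay below the controls, high-load 2 only just. Against the controls the log2 fold change was -0.94 (SE 0.40, adjusted p = 0.214), and -0.56 (SE 0.38, adjusted p = 0.467) without control 2. Slc22a8 (OAT3), the neighbouring carrier for larger and sulfated anions, had 241, 911 and 560.4 CPM in the high-load kidneys, against 955, 1281 and 873 CPM in the controls. Here high-load 2 lay within the control range and high-load 1 far below it. For Slc22a8 the log2 fold change was -0.86 (SE 0.46, adjusted p = 0.289), and -0.68 without control 2, -0.49 without high-load 1 and -1.37 without high-load 2.

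Slc22a2 (OCT2), the cation carrier for creatinine and metformin, had 69.9, 190.1 and 123 CPM in the high-load kidneys, against 189, 251 and 232 CPM in the controls. High-load 2 again lay within the control range and the other high-load kidneys below it. Means were 128 ± 60.3 CPM in the high-load kidneys and 224 ± 31.6 CPM in the controls (SD, n = 3 each), with a log2 fold change of -0.81 (SE 0.34, adjusted p = 0.209), and -0.73 without control 2 and -0.51 without high-load 1. Slco4c1, a carrier of digoxin and thyroid hormone, had 11.3, 9.34 and 8.57 CPM in the high-load kidneys, against 12.3, 60.03 and 18.3 CPM in the controls. The 3 high-load values lay close together below all controls, and control 2 stood far above the others. Its log2 fold change was -1.63 (SE 0.58, adjusted p = 0.164) with all kidneys and -0.65 (SE 0.23, adjusted p = 0.288) without control 2. DESeq2 gave Slco4c1 an adjusted p of 0.0237 with all kidneys.

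On the brush border, 8 carriers recover solutes from the urine or exchange them with it, and the 7 tested all had log2 fold changes below 0. Their median was -0.74, and -0.75 without control 2. Slc22a12 (URAT1, ENSMUSG00000061742, chr19:6535845-6543032), the main urate reabsorber, had 299, 518 and 345 CPM in the high-load kidneys, against 539, 859 and 741 CPM in the controls. High-load 2 came closest to the controls, and the groups did not overlap. Means were 387 ± 115 CPM in the high-load kidneys and 713 ± 162 CPM in the controls (SD, n = 3 each). The log2 fold change was -0.88 (SE 0.27, adjusted p = 0.135), and -0.73 (SE 0.29, adjusted p = 0.309) without control 2, a level 1.84-fold lower with all kidneys. DESeq2 gave an adjusted p of 0.0142 with all kidneys. An exon of Slc22a12 overlaps one of Nrxn2 on the opposite strand, and its reads cannot be told apart from those of Nrxn2 unless the counting was stranded.

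Slc22a13 (OAT10), an exchanger of nicotinate and urate, had 52.1, 181 and 94.8 CPM in the high-load kidneys, against 196, 90.6 and 271 CPM in the controls. Control 2 lay between the high-load values, and all 3 of these lay below controls 1 and 3. Slc22a13 had a log2 fold change of -0.77 (SE 0.54, adjusted p = 0.41), and -1.10 (SE 0.50, adjusted p = 0.34) without control 2, -0.43 leaving out high-load 1, -1.34 leaving out high-load 2 and -0.39 leaving out control 3. Slc22a19 (OAT5), a rodent carrier of steroid sulfates and ochratoxin, had 36.2, 306 and 173 CPM in the high-load kidneys, against 341, 34.9 and 443 CPM in the controls. Control 2 was the lowest kidney of all, close to high-load 1, while controls 1 and 3 were above every high-load kidney. For Slc22a19 the log2 fold change was -0.67 (SE 0.99, adjusted p = 0.709), and -1.19 (SE 0.78, adjusted p = 0.451) without control 2, -0.19 leaving out high-load 1, -1.39 leaving out high-load 2 and -0.13 leaving out control 3.

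Slco1a6, a rodent carrier of the organic anion polypeptide family, had 84.2, 226 and 127 CPM in the high-load kidneys, against 295, 216 and 394 CPM in the controls. High-load 2 was above control 2 alone. Its log2 fold change was -1.05 (SE 0.39, adjusted p = 0.173), and -1.25 (SE 0.41, adjusted p = 0.287) without control 2, while DESeq2 gave an adjusted p of 0.0416 with all kidneys. Slco1a1, a steroid conjugate carrier known to be androgen-driven in mouse kidney, was not tested: it had 0, 2 and 2 counts in the high-load kidneys, against 1, 10 and 0 in the controls. All but control 2 were at or under 3 counts.

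Slc10a2 (ASBT), the sodium-coupled bile acid carrier, had 31.3, 67.3 and 56.9 CPM in the high-load kidneys, against 73.8, 84.2 and 101 CPM in the controls. The groups did not overlap. It had a log2 fold change of -0.74 (SE 0.28, adjusted p = 0.179), and -0.75 without control 2 and -0.47 without high-load 1. Slc22a4 (OCTN1), the ergothioneine carrier, had 32.2, 64.6 and 41.3 CPM in the high-load kidneys, against 61.3, 71.2 and 80.5 CPM in the controls. High-load 2 lay within the control range. Slc22a4 had a log2 fold change of -0.63 (SE 0.26, adjusted p = 0.199), and -0.63 without control 2, -0.42 without high-load 1 and -0.95 without high-load 2. Slc22a21 (OCTN3), a mouse carnitine carrier, ranged from 6.07 to 7.47 CPM in the high-load kidneys and from 5.88 to 8.598 CPM in the controls. Its log2 fold change was -0.18 (adjusted p = 0.61), and -0.15 without control 2, -0.28 leaving out high-load 1, -0.065 leaving out control 1 and -0.33 leaving out control 3.

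The remaining uptake carriers were not assigned to a face of the cell, and none had an unadjusted p under 0.05. Slc22a7 (OAT2), an organic anion carrier that in mouse kidney is known to be higher in females, had 17.01, 422 and 212 CPM in the high-load kidneys, against 356, 26.2 and 477 CPM in the controls. High-load 1 and control 2 were both far below every other kidney. Between groups the log2 fold change had a wide error, at -0.40 (SE 1.22, adjusted p = 0.865), and -0.94 (SE 1.07, adjusted p = 0.664) without control 2. The sign turned to above 0 without high-load 1 (0.15) or without control 3 (0.18), so Slc22a7 has no settled direction in these kidneys.

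Slco2a1, the prostaglandin carrier, had 75.6, 69.5 and 71.5 CPM in the high-load kidneys, against 81.9, 57.7 and 76.5 CPM in the controls, a log2 fold change of 0.003 (adjusted p = 0.991) that was -0.14 without control 2. The groups overlapped. Slco2b1, which carries steroid sulfates, had 39.4, 55.2 and 27.9 CPM in the high-load kidneys, against 46.4, 38.2 and 60.9 CPM in the controls. Its groups overlapped as well, with a log2 fold change of -0.25 that was -0.40 without control 2, -0.52 leaving out high-load 2, -0.039 leaving out high-load 3 and -0.054 leaving out control 3. Slco3a1, another prostaglandin carrier, had 78.4, 78.1 and 74.5 CPM in the high-load kidneys, against 93.6, 171 and 69.5 CPM in the controls. Only control 2 stood out there, and the log2 fold change of -0.53 was -0.09 without it.

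**Figure D2:**
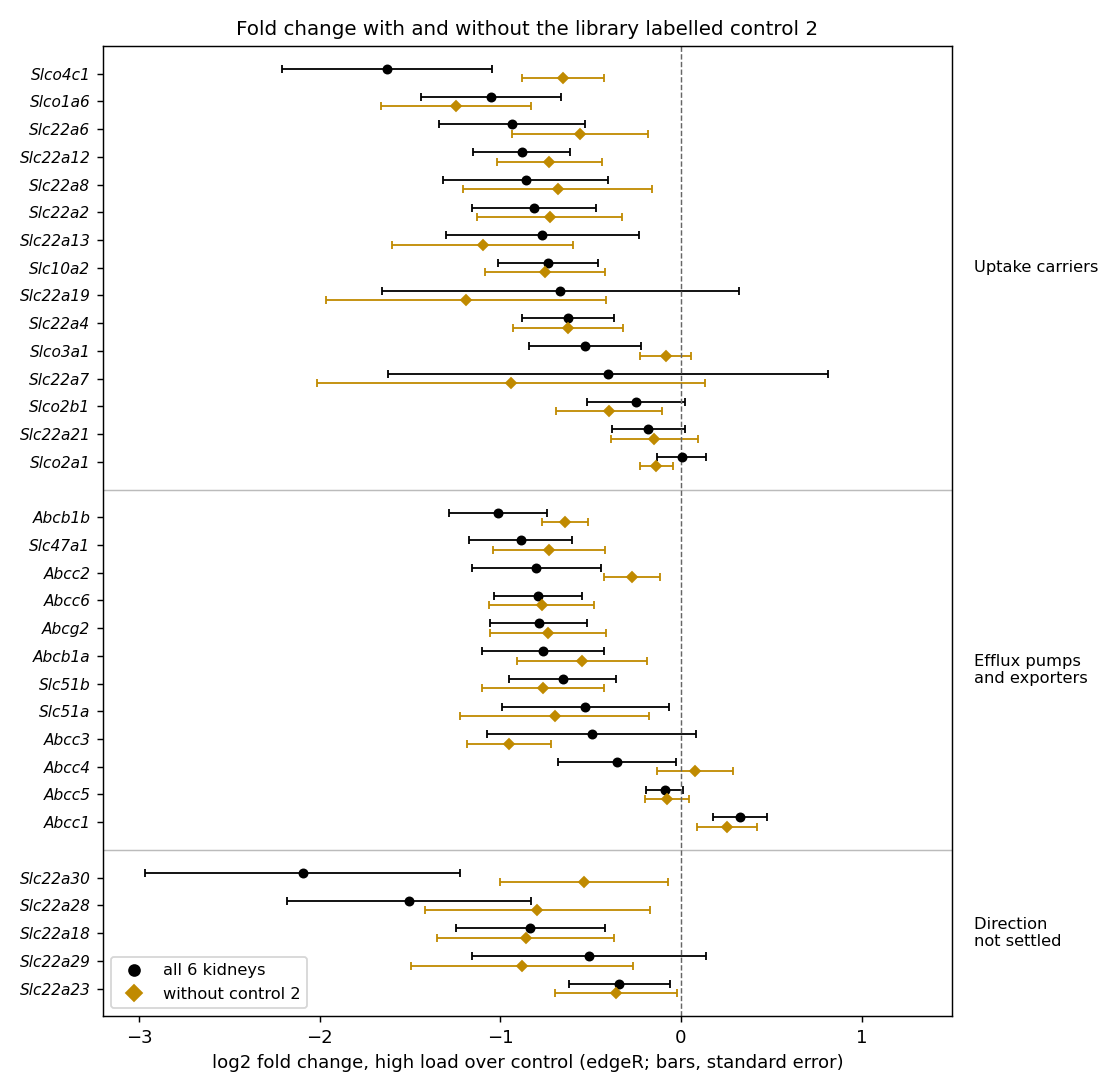
Log2 fold change of high load over control for the 32 tested transporters, with bars of 1 standard error; black circles use all 6 kidneys and yellow diamonds leave out control 2. Nearly all points lie left of 0, and those of Slc22a30, Slco4c1 and Slc22a28 move towards 0 without control 2 while those of Slc22a19, Slc22a7 and Abcc3 move away from it.

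Of the 5 carriers whose direction is not settled, all had log2 fold changes below 0, with a median of -0.83, and -0.79 without control 2. Slc22a18, an imprinted carrier, was among the most abundant of all, with 123, 420.0 and 242 CPM in the high-load kidneys, against 419, 450.5 and 529 CPM in the controls. High-load 2 overlapped the controls by a narrow margin, and the log2 fold change was -0.83 (SE 0.41, adjusted p = 0.261), and -0.86 without control 2, -0.49 without high-load 1 and -1.35 without high-load 2. Slc22a23, an orphan carrier, had 58.7, 136 and 103 CPM in the high-load kidneys, against 124, 123 and 131 CPM in the controls. Its groups overlapped (log2 fold change -0.34, and -0.36 without control 2, -0.07 without high-load 1 and -0.64 without high-load 2).

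The 3 paralogs with the printed upstream sequences differed in control 2. Slc22a30 had 3.26, 9.45 and 4.95 CPM in the high-load kidneys, against 7.10, 58.5 and 9.92 CPM in the controls. Control 2 was 6.87-fold above the mean of controls 1 and 3, and high-load 2 lay between these. With all kidneys its log2 fold change was -2.10 (SE 0.87, adjusted p = 0.205), and -0.54 (SE 0.47, adjusted p = 0.562) without control 2. Slc22a28 ranged from 2.74 to 14.3 CPM in the high-load kidneys and from 15.0 to 48.4 CPM in the controls, highest in control 2 by 2.93-fold over the other controls' mean. This gave a log2 fold change of -1.51 (SE 0.67, adjusted p = 0.227), and -0.79 without control 2. Slc22a29 went the other way, with 11.5, 60.3 and 45.4 CPM in the high-load kidneys, against 70.7, 22.8 and 72.9 CPM in the controls. Control 2 was 3.15-fold below the mean of controls 1 and 3, which lay above every high-load kidney. For Slc22a29 the log2 fold change was -0.51 (SE 0.65, adjusted p = 0.659), and -0.88 without control 2, -0.069 leaving out high-load 1, -0.97 leaving out high-load 2, -0.30 leaving out control 1 and -0.26 leaving out control 3. The coding sequences of Slc22a28 and Slc22a30 were 98.8% identical over aligned bases and those of Slc22a29 92.3% to each, so how the reads were shared among them is uncertain.

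Among the pumps that push substrates across the brush border into the urine, all 6 had log2 fold changes below 0, and 5 of 6 without control 2. Slc47a1 (MATE1), the proton exchanger that lets out the cations taken up by OCT2, had 206, 427 and 331 CPM in the high-load kidneys, against 508, 718 and 556 CPM in the controls. Every high-load kidney lay below every control. The level was 1.85-fold lower, a log2 fold change of -0.89 (SE 0.28, adjusted p = 0.144), and -0.73 (SE 0.31, adjusted p = 0.322) without control 2. DESeq2 gave Slc47a1 an adjusted p of 0.0214 with all kidneys.

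Abcb1b (ENSMUSG00000028970, chr5:8798147-8866315), a P-glycoprotein of rodents that expels a wide range of drugs, had 28.4, 26.8 and 22.4 CPM in the high-load kidneys, against 41.8, 76.4 and 38.6 CPM in the controls. The high-load kidneys were tightly grouped below all controls, and control 2 was the highest. Means were 25.8 ± 3.096 CPM in the high-load kidneys and 52.3 ± 20.9 CPM in the controls (SD, n = 3 each). Abcb1b had the smallest adjusted p of the 32, with a log2 fold change of -1.01 (SE 0.27, adjusted p = 0.12). Without control 2 it was -0.64 (SE 0.13, adjusted p = 0.26), and DESeq2 gave adjusted p values of 0.00925 with control 2 and 0.0185 without it. Its paralog Abcb1a, the second P-glycoprotein, ranged from 5.23 to 12.3 CPM in the high-load kidneys and from 11.3 to 18.5 CPM in the controls. The log2 fold change of Abcb1a was -0.77 (SE 0.34, adjusted p = 0.221), and -0.55 without control 2. Their coding sequences were 88.2% identical, and each has an exon that overlaps another gene on the opposite strand.

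Abcg2 (BCRP), which exports urate and drug conjugates, had 134, 279 and 196 CPM in the high-load kidneys, against 298, 375 and 376 CPM in the controls. The groups did not overlap, with high-load 2 nearest the controls. Abcg2 had a log2 fold change of -0.79 (SE 0.27, adjusted p = 0.158), and -0.74 (SE 0.32, adjusted p = 0.327) without control 2. With all kidneys DESeq2 gave an adjusted p of 0.0384. Abcc2 (MRP2), the exporter of glutathione and glucuronide conjugates, had 169, 217 and 169 CPM in the high-load kidneys, against 223, 521 and 223 CPM in the controls. Controls 1 and 3 lay just above high-load 2, and control 2 at 2.34-fold their mean. The log2 fold change of -0.80 (SE 0.36, adjusted p = 0.224) was -0.27 (SE 0.16, adjusted p = 0.408) without control 2. Abcc4 (MRP4), an exporter of cyclic nucleotides and urate, had 102, 98.4 and 78.7 CPM in the high-load kidneys, against 70.3, 181 and 105 CPM in the controls. Its groups overlapped, and its log2 fold change of -0.36 turned to 0.08 without control 2 and was -0.63 without control 1.

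On the blood side the exporters were less uniform. Abcc6, a pump linked to release of ATP and to soft tissue calcification, had 7.18, 14.1 and 10.9 CPM in the high-load kidneys, against 16.5, 19.1 and 19.99 CPM in the controls. The groups did not overlap, and controls varied little among themselves. The log2 fold change was -0.79 (SE 0.24, adjusted p = 0.137), and -0.77 (SE 0.29, adjusted p = 0.301) without control 2. With all kidneys the DESeq2 adjusted p was 0.037. Abcc3 (MRP3), an exporter of glucuronides, had 89.2, 151 and 133 CPM in the high-load kidneys, against 232, 45.3 and 248 CPM in the controls. Control 2 was the lowest of all 6 kidneys, and controls 1 and 3 were the highest. Abcc3 had a log2 fold change of -0.49 (SE 0.58, adjusted p = 0.629) with all kidneys, and -0.95 (SE 0.23, adjusted p = 0.265) without control 2, where DESeq2 gave an adjusted p of 0.0129. The value was smaller with other single kidneys left out, at -0.30 leaving out high-load 1, -0.24 leaving out control 1 and -0.16 leaving out control 3.

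Slc51a and Slc51b encode the 2 subunits of the organic solute carrier that lets bile acids and steroids out. Slc51a had 16.9, 50.9 and 26.8 CPM in the high-load kidneys, against 32.5, 34.2 and 69.7 CPM in the controls. Slc51b had 12.1, 27.9 and 18.04 CPM in the high-load kidneys, against 30.5, 25.7 and 35.1 CPM in the controls. For both, high-load 2 lay within the control range, and the log2 fold changes were -0.53 (SE 0.46, adjusted p = 0.509) for Slc51a and -0.66 (SE 0.30, adjusted p = 0.229) for Slc51b. Slc51a was -0.70 without control 2, -0.23 leaving out high-load 1, -1.06 leaving out high-load 2 and -0.083 leaving out control 3. Slc51b was -0.77 without control 2, -0.40 without high-load 1 and -1.02 without high-load 2. Abcc1 (MRP1), an exporter of glutathione conjugates present in many cell types, had 50.7, 35.8 and 41.5 CPM in the high-load kidneys, against 33.3, 30.7 and 38.03 CPM in the controls. It was the only exporter with a log2 fold change above 0 with all kidneys, at 0.33 (SE 0.15, adjusted p = 0.232), and 0.25 without control 2 and 0.19 without high-load 1, and its groups overlapped. Abcc5 (MRP5), an exporter of cyclic nucleotides, had 63.7, 77.3 and 77.99 CPM in the high-load kidneys, against 79.5, 79.2 and 74.3 CPM in the controls. High-load 1 was the lowest and the other 5 lay close together, and its log2 fold change was -0.09 (adjusted p = 0.618), -0.08 without control 2, 0.0026 without high-load 1 and -0.14 without high-load 3, and 0.022 with library totals.

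Uptake and efflux sides were set against each other, as the 2 ends of the relay. The 15 tested uptake carriers had a median log2 fold change of -0.74, with 14 below 0 and 5 lower at an unadjusted p under 0.05. The 12 exporters had a median of -0.71, with 11 below 0 and 4 lower at that threshold. Over all genes 10.2% were lower at it. Without control 2 the medians were -0.68 for uptake and -0.67 for efflux, and 3 uptake carriers and 3 exporters were lower, against 6.25% of all genes. Per unit of transcript length, summed uptake carriers amounted to 1136, 2853 and 1681 TPM in the high-load kidneys, against 2932, 3073 and 3637 TPM in the controls. Summed exporters amounted to 517, 777 and 568 TPM in the high-load kidneys, against 877, 1101 and 1032 TPM in the controls. The ratio of uptake to efflux TPM was 2.198, 3.67 and 2.96 in the high-load kidneys, against 3.34, 2.79 and 3.53 in the controls. Both sums were lower in each high-load kidney than in each control, and the ratios overlapped. The ratio of OCT2 to MATE1 mRNA, the cation pathway, also overlapped, at 0.462, 0.607 and 0.507 in the high-load kidneys and 0.508, 0.476 and 0.570 in the controls, all as ratios of TPM.

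By level per transcript length, the most abundant carrier was Slc22a12, with a mean of 461 against 822 TPM in high-load and control kidneys. Slc22a18 followed with 407 against 717 TPM, and Slc22a8 with 384 against 690.0 TPM. Over the kidneys of either group these 3 overlapped, so their order is not settled. Without control 2 the control means were 745, 734 and 614 TPM, for Slc22a12, Slc22a18 and Slc22a8 in turn. The most abundant exporter was Slc47a1, with 253 against 458 TPM, several-fold above Abcg2 with 66.4 against 112 TPM and Slc51b with 72.8 against 112 TPM. Slc22a8 exceeded its neighbour Slc22a6 in every kidney: Slc22a6 over Slc22a8 TPM was 0.574, 0.387 and 0.417 in the high-load kidneys, against 0.372, 0.529 and 0.406 in the controls. These ratios overlapped between groups.

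**Figure D3:**
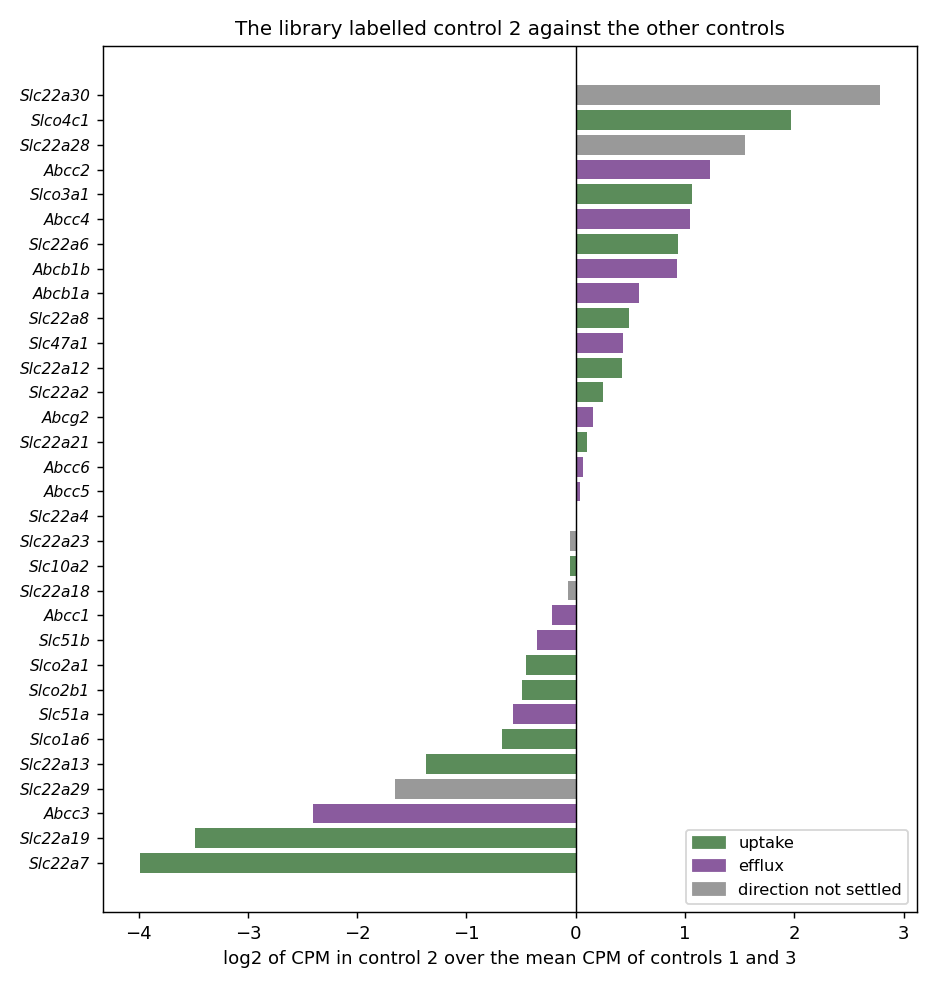
Log2 of the CPM in control 2 over the mean CPM of controls 1 and 3 for each tested transporter, coloured by side of the cell. Slc22a30 and Slco4c1 reach furthest up, at 6.87-fold and 3.93-fold, and Slc22a7, Slc22a19 and Abcc3 furthest down.

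Control 2 exceeded both other controls by more than 2-fold in 4 transporters, Slco4c1, Slc22a28, Slc22a30 and Abcc2, against 1.01% of all genes. It lay more than 2-fold below both in 5, Slc22a13, Slc22a19, Slc22a7, Slc22a29 and Abcc3, against 3.29% of all genes. The mean of controls 1 and 3 was 15.9-fold above control 2 for Slc22a7, 11.2-fold for Slc22a19 and 5.299-fold for Abcc3. These are descriptions of 1 library against 2 others, with no test. Slc22a7 and Slc22a19 had their lowest high-load value in high-load 1, whose Xist and Y-linked counts were like those of the other high-load kidneys.

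High-load 1 was the lowest of the high-load kidneys in 22 of the 32 transporters, against 39.6% of all genes. Per kidney, the median uptake carrier's distance from its control mean, in log2(CPM + 0.5), was -1.44, -0.23 and -0.77 in the high-load kidneys, against -0.10, 0.01 and 0.10 in the controls. Over the exporters it was -0.81, -0.18 and -0.73 in the high-load kidneys, against -0.22, 0.08 and 0.03 in the controls. Taken from the mean of controls 1 and 3 alone, the high-load medians were -1.36, -0.19 and -0.76 for uptake and -0.95, -0.13 and -0.74 for efflux. High-load 2, with the same labelled load as high-load 1, was nearest the controls for both. Its exporter median (-0.18) lay above that of control 1 (-0.22). Taken from controls 1 and 3 alone, its uptake median (-0.187) also lay just above that of control 1 (-0.194). On the same scale proximal tubule markers stood at -1.98, -0.42 and -0.89 in the high-load kidneys, against -0.18, 0.21 and 0.01 in the controls. Tubule injury markers stood at 2.37, 0.82 and 1.72 in the high-load kidneys, against 0.36, -0.02 and -0.22 in the controls. Within the high-load group the transporter medians thus followed the order of the kidneys by either marker list. Single genes could differ, and Abcb1b, Abcc4 and Slco4c1 were highest in high-load 1. Medians of distal tubule (-1.22, -0.06 and -0.30), endothelial, collecting duct (0.40, 0.18 and 0.25) and macrophage markers also had this order, downwards or upwards. Those of the remaining marker lists did not. A link of the transporters to any of these lists was not tested.

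**Figure D4:**
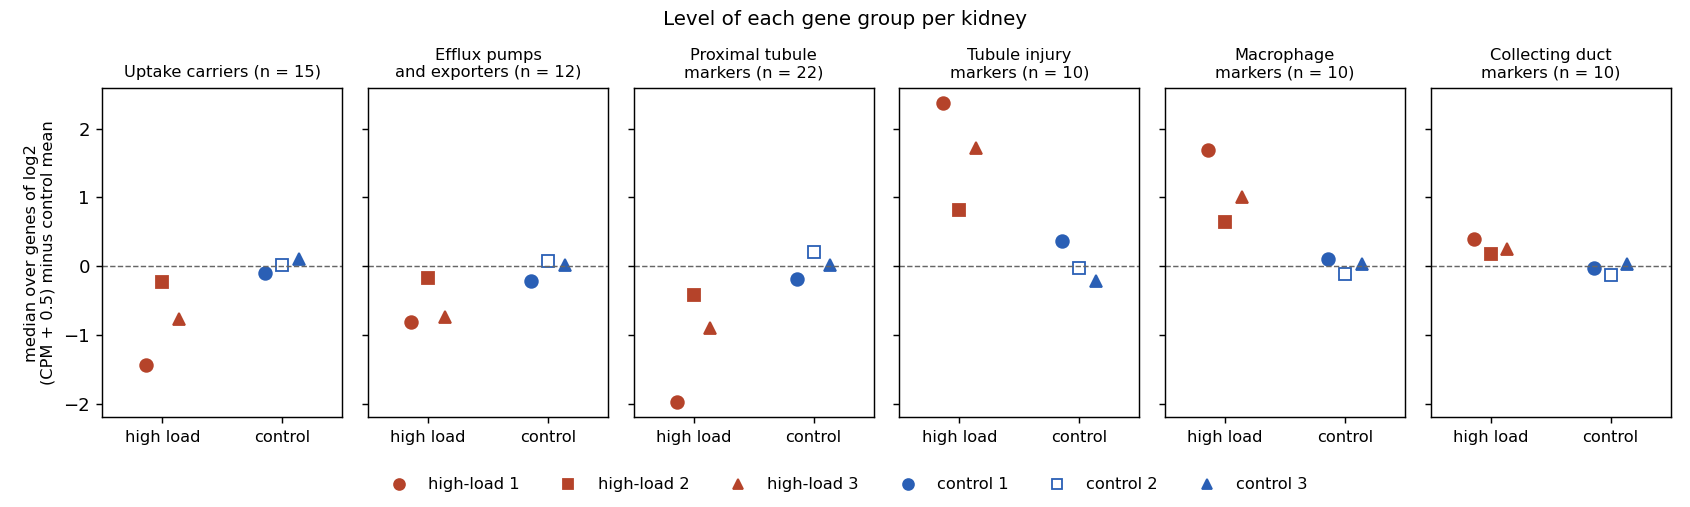
For each gene group, the median distance of its genes from their control mean in log2(CPM + 0.5), 1 point per kidney, high load left of control. Uptake carriers, exporters and proximal tubule markers share the order high-load 2, 3 and 1 downwards, and injury and macrophage markers show the same order upwards. For exporters high-load 2 lies within the control range, above control 1.

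Marker lists of kidney cells also differed between the groups, by their medians of log2 fold changes, and their part in the results was not tested. All 22 proximal tubule markers had log2 fold changes below 0, with a median of -0.96. At an unadjusted p under 0.05, 10 of them were lower and 0 higher, against 10.2% and 14% of all genes. Without control 2, 20 were below 0 and the median was -0.89. In that fit 3 were lower and 2 higher at that threshold, against 6.25% and 9.84% of all genes. All 10 tubule injury markers were above 0, with a median of 1.66 and a summed level of 5844 to 12016 CPM in the high-load kidneys, against 2748 to 4025 CPM in the controls. Of 10 macrophage markers, 9 were above 0, with a median of 1.09 and a sum of 789 to 1540 CPM in the high-load kidneys, against 473 to 591 CPM in the controls. Medians were 1.21 over 11 lymphocyte markers, 0.64 over 9 fibroblast and smooth muscle markers (0.36 without control 2) and 0.33 over 10 collecting duct markers (0.20 without high-load 1). Without high-load 1 the lymphocyte median was 0.74. Over 6 loop of Henle markers the median was -0.29 (-0.15 without control 2), and over 5 distal tubule markers it was -0.26 (-0.40 without control 2). Over 8 endothelial markers it was -0.35 (-0.14 without high-load 1). Podocyte markers had no settled direction, with a median of -0.18 over 6 genes and 0.18 without high-load 1. The same held for red blood cell, adipose, adrenal and urothelial markers, of which 7 of 10 were tested. Their median of -0.34 became -2.86 without high-load 1. Without control 2 the median was 0.92, but over 9 tested genes, so it is not over the same set. Cyp11b1, which defines adrenal cells, was at 0 in all kidneys. In edgeR no marker passed an adjusted p under 0.05. In DESeq2, 9 of 10 injury, 8 of 10 macrophage and 3 of 9 fibroblast and smooth muscle markers were higher at that threshold, and 6 of 19 proximal tubule, 2 of 6 loop of Henle, 1 of 5 distal tubule and 1 of 8 endothelial markers were lower. Collecting duct markers had 4 higher and 1 lower of 10 in DESeq2, and the other lists 0. Over its 23811 genes, not filtered on low counts, DESeq2 called 4.51% higher and 2.62% lower at an adjusted p under 0.05.

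Of 27 other organic ion and drug transporter genes, 18 were tested, and 12 had log2 fold changes below 0. Their median was -0.43, and -0.31 without control 2. At an unadjusted p under 0.05, 5 were lower and 1 higher, against 10.2% and 14% of all genes. Without control 2, 19 were tested, with 3 lower and 0 higher, against 6.25% and 9.84% of all genes. Slc22a5 (OCTN2), the carnitine carrier, averaged 184 ± 63.2 CPM in the high-load kidneys and 289 ± 24.7 CPM in the controls (SD, n = 3 each), a log2 fold change of -0.65 (adjusted p = 0.186), and -0.67 without control 2. Slc16a9, a monocarboxylate family carrier, averaged 70.3 ± 12.7 CPM in the high-load kidneys and 148 ± 67.7 CPM in the controls (SD, n = 3 each). Control 2 was the highest at 225 CPM, and the log2 fold change of -1.07 was -0.64 without it. The gene higher at an unadjusted p under 0.05 was Slc22a15, an orphan relative, at 8.43 ± 2.09 CPM in the high-load kidneys and 5.46 ± 0.715 CPM in the controls (SD, n = 3 each). Its log2 fold change was 0.63, and 0.56 without control 2, where edgeR gave an unadjusted p of 0.081. Abcb4 and Slc22a3 (OCT3) averaged under 3 CPM in either group, at 0.446 and 1.27 CPM in the high-load kidneys and 1.17 and 2.74 CPM in the controls.

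The genes that work beside these carriers in urate handling and dicarboxylate exchange included 10 tested of 11, of which 9 had log2 fold changes below 0. Their median was -0.76, and -0.74 without control 2. At an unadjusted p under 0.05, 5 were lower and 0 higher, against 10.2% and 14% of all genes. Without control 2, 3 were lower and 0 higher, against 6.25% and 9.84% of all genes. Slc13a3 (NaDC3) imports the dicarboxylates that OAT1 and OAT3 exchange, and averaged 349.6 ± 165 CPM in the high-load kidneys and 764 ± 281 CPM in the controls (SD, n = 3 each). This was a log2 fold change of -1.13 (adjusted p = 0.162), and -0.79 without control 2. Slc13a2 (NaDC1), its brush-border relative, averaged 44.04 ± 15.5 CPM in the high-load kidneys and 89.2 ± 16.8 CPM in the controls (SD, n = 3 each). Slc5a8, a sodium-coupled monocarboxylate carrier that works with URAT1, averaged 52.3 ± 15.3 CPM in the high-load kidneys and 139.7 ± 53.5 CPM in the controls (SD, n = 3 each), with a log2 fold change of -1.42 (adjusted p = 0.0999), and -1.07 without control 2. Slc17a1 (NPT1), a urate and anion exporter, averaged 265 ± 49.5 CPM in the high-load kidneys and 478 ± 98.4 CPM in the controls (SD, n = 3 each).

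Of 20 regulators and scaffolds of the transporters, 19 were tested, and 15 had log2 fold changes below 0. Their median was -0.53, and -0.40 without control 2. At an unadjusted p under 0.05, 8 were lower and 0 higher, against 10.2% and 14% of all genes. Without control 2, 20 were tested, with 7 lower and 0 higher, against 6.25% and 9.84% of all genes. Hnf4a averaged 385 ± 133 CPM in the high-load kidneys and 682 ± 94.2 CPM in the controls (SD, n = 3 each), a log2 fold change of -0.83 (adjusted p = 0.152), and -0.75 without control 2. Pdzk1, a scaffold that holds URAT1 and other carriers at the brush border, averaged 271 ± 114 CPM in the high-load kidneys and 485 ± 78.1 CPM in the controls (SD, n = 3 each), a log2 fold change of -0.84. Nr1i2 (PXR), a drug-sensing nuclear receptor, averaged 10.2 ± 1.29 CPM in the high-load kidneys and 16.5 ± 0.528 CPM in the controls (SD, n = 3 each), with an adjusted p of 0.0946. Ppara, the fatty acid sensor, averaged 13.95 ± 3.33 CPM in the high-load kidneys and 33.8 ± 9.98 CPM in the controls (SD, n = 3 each). Nfe2l2 (NRF2), which drives antioxidant response genes, averaged 161 ± 6.23 CPM in the high-load kidneys and 159 ± 3.04 CPM in the controls (SD, n = 3 each), a log2 fold change of 0.02.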

How the data were processed

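Groups and replicate numbers came from the sample titles and loads from the genotype labels, with 1 kidney and 1 mouse code per library. The authors deposited raw counts per Ensembl gene. In the submitters' processing notes stand featureCounts 2.0.1, HISAT2 2.2.1, fastp 0.23.2, SAMtools 1.11, edgeR and mm10. Strand use in counting and the treatment of reads matching more than 1 place are settings not given in the sources used here. Exons of 7 of the transporters overlap an exon of another gene on the opposite strand.

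Symbols, positions and lengths came from GENCODE M21, which matched 32158 of 32285 IDs. Counts were tested in R 4.3.3 with edgeR 4.0.16: TMM scaling, a filterByExpr minimum count of 10, and a two-sided quasi-likelihood test (robust, with group as the only term), Benjamini-Hochberg adjusted over 15955 genes. Standard errors were derived from the F statistic. DESeq2 1.42.0 and limma-voom (limma 3.58.1) were alternatives, and the edgeR script was tested on simulated data. At an adjusted p under 0.05 it recovered 8% of genes set to change 1.5-fold and 52% of those set at 2-fold. It recovered 84% at 4-fold and 96% at 8-fold, and 14 of 134 calls were false. CPM used TMM library sizes, and TPM used exonic lengths. Coding identity used the longest open reading frame of each gene, in place of the planned protein comparison. The smallest exact two-sided permutation p for 3 against 3 is 0.1, so none was used. Libraries of a group differed from each other by a chi-square of 19.98 to 93.11 per degree of freedom, so none was counted as a repeat.

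The transporters, gene lists and tests were chosen with earlier results of these data known. The text names each transporter, gives values per kidney for those with an unadjusted p under 0.05 or a mean of at least 20 CPM, and up to 6 genes of other lists by smallest p, plus regulators set beside the transporters. Some genes covered by the lists, and the searches for motif letters, are not reported here. The common biological coefficient of variation was 22.97%.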

Additional observations from a re-analysis of the deposited data

How the results depend on the processing

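No transporter passed an adjusted p under 0.05 in edgeR, nor in limma-voom. DESeq2 called 7 lower, and 2 with control 2 left out. Leaving out 1 kidney at a time in edgeR gave 0 to 2, the 2 being Slc22a4 and Abcg2 without high-load 2. The share of all genes at that threshold is not given here for this setting. At an unadjusted p under 0.05 the 10 lower became 18 in DESeq2 (7.71% of 23811 genes, not filtered on low counts). With 1 kidney left out the number was 3 to 17. It was lowest without high-load 3 (6.15% of all genes) and highest without high-load 2 (13.2%), with 6 without high-load 1 (8.09%). The 0 higher became 1 with library totals (18.2% of all genes) and 1 with no filter on low counts (10.3% of 23865 genes). With 1 kidney left out it was 0 to 1, the 1 without high-load 2 (15.9%) and without control 3 (9.38%). Genes whose groups did not overlap, in either direction, numbered 10 with all kidneys, 7 with library totals and 10 to 21 with 1 left out. The 10 with all kidneys were all lower, against 15.8% of all genes lower and 17.1% higher. The 7 with library totals were all lower, against 9.33% and 24.2%. The 10 without high-load 1 were all lower, against 19% and 20.7%. Without high-load 2, 20 were lower and 1 higher, against 22.8% and 25.4%, so the larger count came with larger shares of all genes. Transporters without overlap numbered 17 with control 2 and high-load 1 both left out (all lower, against 25% of all genes). In DESeq2 without control 2 they numbered 19 (all lower, against 17.5% of 23623 genes not filtered on low counts). The median log2 fold change ranged from -1.22 to -0.47 for uptake carriers and from -1.03 to -0.49 for exporters with 1 kidney left out, farthest from 0 without high-load 2. Leaving out control 2 with high-load 1, and DESeq2 without control 2, were added after seeing the data.

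Of 576 values over 18 alternatives, 14 changed sign, in 4 genes. With 1 kidney left out, Slc22a7 ranged from -1.33 to 0.18, Slco2a1 from -0.14 to 0.10, Abcc4 from -0.63 to 0.080 and Abcc5 from -0.14 to 0.0026. Slco2a1 was -0.0053 with DESeq2 size factors, -0.0070 in DESeq2, -0.17 with control 2 and high-load 1 both left out and -0.14 in DESeq2 without control 2. Abcc4 was 0.013 with both left out and 0.072 in DESeq2 without control 2. Abcc5 was 0.022 with library totals and 0.015 with both left out. The causes were not tested. Same-numbered kidneys did not deviate together (correlations 0.12, -0.19 and 0.05), so the numbers give no pairing. A fit with the replicate number as a block gave 15 lower at an unadjusted p under 0.05 (10.1% of all genes) and 0 at an adjusted one, with medians of -0.86 for uptake and -0.70 for efflux.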

Other observations

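Some markers of the proximal tubule changed direction with the library labelled control 2. Cyp2e1, which oxidises small drugs and solvents, had 183, 169.9 and 100.5 CPM in the high-load kidneys, against 100.1, 1039.6 and 72.3 CPM in the controls, so that its log2 fold change was -1.42 with all kidneys and 0.81 without control 2. Cyp7b1, a hydroxylase of oxysterols and steroids, had 6.76, 4.18 and 3.95 CPM in the high-load kidneys, against 3.05, 83.5 and 2.397 CPM in the controls, with log2 fold changes of -2.57 and 0.86 in the same order. Slc7a13 had a log2 fold change of -6.60 with all kidneys (adjusted p = 0.158) and -1.18 without control 2. Kap, an androgen-regulated protein of mouse kidney, had 150.2, 9589 and 2955 CPM in the high-load kidneys, against 5108, 4408 and 10599 CPM in the controls, with the wider range among the high-load kidneys.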
